A study of Mus musculus with 8 samples.

Results

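The miR-15/16 and miR-103/miR-107 group was followed through sorted cells of the mouse thymus as 9 miRNAs: mmu-miR-15a, mmu-miR-15b, mmu-miR-16, mmu-miR-195, mmu-miR-322, mmu-miR-497, mmu-miR-503, mmu-miR-103 and mmu-miR-107. They were chosen by name out of 1040 mouse probes, and all 9 carry the letters AGCAGC at or next to their 5′ end. CD45+ cells (3 samples), cortical thymic epithelial cells (cTECs, 2 samples) and medullary thymic epithelial cells (mTECs, 3 samples) were sorted from 4-week-old NOD wildtype females, a strain prone to autoimmune diabetes, and no group carried a transgene, a deletion or a treatment. The gates for the arrays were EpCAM- CD45+ for the CD45+ cells, and CD45- EpCAM+ MHC II+ for both epithelial groups, with Ly51 on cTECs and not on mTECs. Each replicate stands for the pooled thymi of 10 to 12 mice, and each RNA was labelled with 1 dye and hybridized to 1 of 8 arrays on 1 slide.

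A miRNA finds its targets mainly through its seed, bases 2 to 8 from the 5′ end, which pairs with sites in messenger RNAs and lowers their translation and stability. The miR-15/16 family is best known as a brake on proliferation and survival: its members target cyclins D1 and E1, the kinase CDK6, the checkpoint kinases WEE1 and CHK1 and the survival factor BCL2, and the locus of miR-15a and miR-16 is lost in many chronic lymphocytic leukaemias. The sister miRNAs miR-103 and miR-107 are known for lowering Dicer and caveolin-1, and lie in introns of the pantothenate kinase genes.

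The mature sequences are shown because the seed is what joins the 9 miRNAs and what divides them. All 9 were found in RefSeq for GRCm38.p6, where miR-195 and miR-497 are named miR-195a-5p and miR-497a-5p, and the seed is in capitals. The first 6 share the seed AGCAGCA, miR-503 has AGCAGCG, and miR-103 and miR-107 have the same letters moved by 1 base, GCAGCAU.
mmu-miR-15a: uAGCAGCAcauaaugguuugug
mmu-miR-15b: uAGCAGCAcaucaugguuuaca
mmu-miR-16: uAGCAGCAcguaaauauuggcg
mmu-miR-195: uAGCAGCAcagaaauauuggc
mmu-miR-322: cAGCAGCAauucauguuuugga
mmu-miR-497: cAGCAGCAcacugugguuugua
mmu-miR-503: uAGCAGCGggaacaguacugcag
mmu-miR-103: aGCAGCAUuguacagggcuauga
mmu-miR-107: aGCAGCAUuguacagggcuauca

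Over their whole length the members differ to unequal degrees. Counted from 1 at the 5′ end of the first miRNA named, miR-103 and miR-107 differ by 1 base of 23 (G22C). miR-16 and miR-195 differ by 2 of the 21 bases compared (G10A and U11G), and miR-15a and miR-15b by 4 of 22 (A12C, G20A, U21C and G22A). miR-322 and miR-503 differ at 11 of 22. One sequence can therefore bind in part to the probe of its near twin, and how far this happened on these arrays was not tested. Of the other mouse probes, 1 had the letters AGCAGC within bases 1 to 8 of its target as the deposited table gives it. This was mmu-miR-1907, which had no match in the RefSeq table and was not well above background on any CD45+ or cTEC array.

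The members come from few transcripts. miR-15a (chr14:61632075-61632096, minus strand) and one copy of miR-16 (Mir16-1, chr14:61631936-61631957) lie within Dleu2 in GRCm38.p6, with 117 bases between the mature sequences. miR-15b (chr3:69009775-69009796, plus strand) and the other copy of miR-16 (Mir16-2, chr3:69009918-69009939) lie within Smc4, a condensin subunit gene, with 121 bases between them. miR-195 and miR-497 lie together on chromosome 11 with 310 bases between them, and miR-322 and miR-503 on the X chromosome, within C430049B03Rik, with 256. The copies of miR-103 lie within Pank3 and Pank2, and miR-107 within Pank1. The miR-16 probe thus reads the product of 2 loci, each shared with a different miR-15, and the miR-103 probe reads 2 loci as well.

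Array signals were processed signals of the scanner, scaled between arrays, and are given in these scaled units. A probe's level cannot be set against another probe's, so that comparisons are between groups, or between groups of a difference within an array. Spot signals under 621 were raised to that floor for the tests, since on cTEC replicate 2 no mouse probe with a lower scaled signal was well above background. The unscaled 75th percentile was 1364 and 2910 on the cTEC arrays and 4213 to 11503 on the other 6, so that the floor hides part of what the CD45+ and mTEC arrays measured. A test was run on the 309 miRNAs with 2 or more arrays well above background, and all 9 members were among them. In 83 of the 309, all arrays were at the floor, among them miR-322, miR-497 and miR-503. In bulk RNA, fewer cells of a type and less RNA per cell cannot be told apart, and the labels do not say whether pools were independent beyond calling them biological replicates.

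In CD45+ cells 5 members were bright, meaning over the floor on every CD45+ array, and each of these had its highest signals there. Because the CD45+ arrays define this set, that order is a description only. miR-15a belongs to the set through its CD45+ arrays alone. miR-15a, miR-15b, miR-103 and miR-107 were called lower in mTECs than in CD45+ cells, and these 4 together with miR-16 were called lower in cTECs. Between the epithelial groups, miR-16, miR-103 and miR-107 were called higher in mTECs, by an adjusted p under 0.05 in a limma fit over all 309 miRNAs. For miR-16 in mTECs against CD45+ cells the adjusted p was 0.0754, although the arrays did not overlap. The other 4 members, miR-195, miR-322, miR-497 and miR-503, stayed under the floor on every array as averages of their spots and were not called in any comparison. Their mTEC and CD45+ arrays did not overlap either, with the mTEC readings higher, though some readings were not well above background. How many of all 309 miRNAs lacked overlap was not counted, so that a lack of overlap does not set the members apart.

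**Figure D1:**
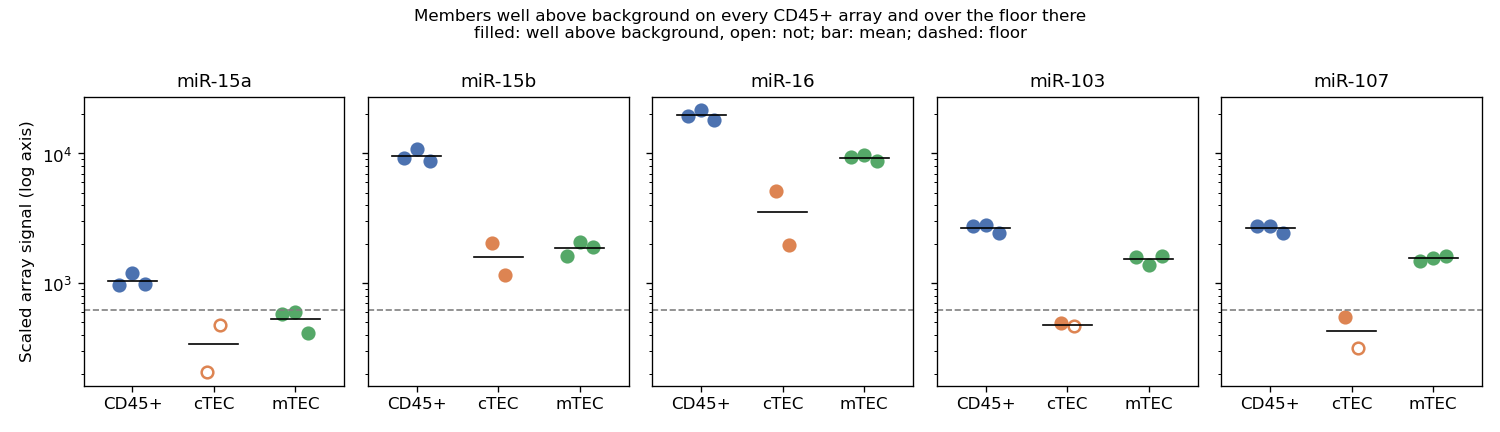
Scaled array signal (log axis) of the 5 bright members in each CD45+, cTEC and mTEC array, with the mean as a bar and the floor of 621 as a dashed line. All 3 CD45+ arrays lie above all epithelial arrays in each panel, a lack of overlap that was not counted over all miRNAs. Open circles mark arrays on which the probe was not well above background, which occur only in cTECs.

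The count of 4 members lower in mTECs than in CD45+ cells stands against 46 lower of all 309 tested, which is 14.9%. Among the 226 miRNAs with any spot over the floor on any array the share was 20.4%, and 6 members belonged to these. miR-195 was among the 6 only through spot signals on mTEC replicate 2, since its average lay under the floor on every array. In cTECs 5 members were lower, against 62 of 309 (20.1%), or 27.4% of the 226. Higher in mTECs than in cTECs were 3 members, against 50 of 309 (16.2%), or 22.1% of the 226. The median log2 difference over the 9 members was -0.73 in mTECs and -0.74 in cTECs against CD45+ cells, and 0.02 between mTECs and cTECs. The median over all 309 was 0 in each comparison, a value set by miRNAs at the floor in both groups and not a measured lack of change. At a floor of 67.0 it was 0.45 in mTECs and 0.86 in cTECs against CD45+ cells. These comparisons share their arrays and are not independent of each other. Over all miRNAs the calls split into 28 higher and 46 lower in mTECs and 33 higher and 62 lower in cTECs against CD45+ cells. This split moved with the processing. The 75th percentile over all mouse probes gave 18 and 92 in mTECs and 6 and 114 in cTECs, no normalization 2 and 111 in cTECs, and the deposited log2 values 26 and 112 there. Between mTECs and cTECs, 50 were higher and 20 lower in mTECs here, against 38 and 1 with all mouse probes, 73 and 0 without normalization, 32 and 37 with quantile normalization and 74 and 53 with normexp background correction. The members called were lower in the epithelial groups than in CD45+ cells under each of these settings. Where mTECs and cTECs were compared, the members called were higher in mTECs. At a floor of 67.0 the split of all miRNAs turned to 76 higher and 64 lower in mTECs and 139 higher and 85 lower in cTECs.

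miR-15b had the largest fitted difference between CD45+ cells and mTECs of the 9. Its signal was 9243, 10832 and 8789 in the 3 CD45+ samples, 2029 and 1149 in the cTEC samples, and 1625, 2093 and 1907 in the mTEC samples. Every CD45+ array lay above every epithelial array, while the cTEC and mTEC arrays overlapped. The mean was 9622 ± 1073 (SD, n = 3) in CD45+ cells, 1589 ± 622 (SD, n = 2) in cTECs and 1875 ± 235 (SD, n = 3) in mTECs. The log2 difference from CD45+ cells was -2.36 in mTECs (SE 0.23, adjusted p = 4.82e-04) and -2.66 in cTECs (adjusted p = 4.09e-04). It was lower than in CD45+ cells, and called, under all 26 alternative settings in both comparisons. The size ran from -1.72 to -3.20 in mTECs, and from -1.69 with quantile normalization to -4.99 without normalization in cTECs. Between mTECs and cTECs the difference was 0.30 with a 95% interval of -0.33 to 0.93 and an adjusted p of 0.56. That last value changed sign with quantile normalization (-0.41) and with normexp (-0.33), and was 0.71 without cTEC replicate 1. It was 2.06 without normalization (adjusted p = 0.0618) and 1.32 when all mouse probes set the percentile (adjusted p = 0.337).

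miR-16, the shared partner of miR-15a and miR-15b, stood in mTECs between its levels in the other groups. It read 19412, 21722 and 18105 in CD45+ cells, 5144 and 1958 in cTECs, and 9310, 9800 and 8738 in mTECs. The 3 groups did not overlap, with CD45+ cells highest, mTECs between and cTECs lowest. The mean was 19746 ± 1832 (SD, n = 3) in CD45+ cells, 3551 ± 2252 (SD, n = 2) in cTECs and 9282 ± 532 (SD, n = 3) in mTECs, and the cTEC replicates stood farther apart than those of the other groups. In cTECs the log2 difference from CD45+ cells was -2.63 (adjusted p = 0.00242), and it was called under all 26 alternatives. Its size was -3.33 without cTEC replicate 1, -1.94 without cTEC replicate 2 and -4.96 without normalization.

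In mTECs the log2 difference of miR-16 from CD45+ cells was -1.09 (SE 0.34, 95% interval -1.92 to -0.25, adjusted p = 0.0754). The model shares 1 estimate of the spread among the groups, and the 2 cTEC arrays enter it. With CD45+ cells and mTECs alone in the fit the adjusted p was 4.54e-04. Leaving out cTEC replicate 1 gave 0.00127 and leaving out cTEC replicate 2 gave 7.50e-04, with the same difference of -1.09. The difference was below 0 under all 26 alternatives and called under 12 of them, with adjusted p from 4.54e-04 to 0.289.

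The rise of miR-16 in mTECs over cTECs was 1.55 on the log2 scale (adjusted p = 0.0325). It was above 0 under all 26 alternatives and called under 16, with adjusted p from 9.70e-05 to 0.135. It was no longer called without any 1 of the CD45+ arrays (adjusted p = 0.0683, 0.0616 and 0.0632 without replicates 1, 2 and 3) or any 1 of the mTEC arrays (0.0915, 0.0953 and 0.0737). With mTECs and cTECs alone in the fit the adjusted p was 0.135. It was 0.123 when all mouse probes set the percentile, 0.130 with no filter on dim probes and 0.0856 with replicate number as a block. Without cTEC replicate 1 the rise was 2.25 (adjusted p = 9.70e-05) and without cTEC replicate 2 it was 0.85 (adjusted p = 0.00799), so that its size rests on these 2 arrays.

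miR-15a, the Dleu2 partner of miR-16, lay over the floor in CD45+ cells alone. It read 964, 1202 and 979 in CD45+ cells, and 582, 602 and 416 in mTECs, where all 3 arrays were well above their own background but under the floor. On the cTEC arrays it read 205 and 476, and was not well above background on either. CD45+ arrays did not overlap with the others, while the cTEC and mTEC arrays overlapped. The signal in CD45+ cells was at least 2.26-fold higher than in cTECs, taking as the cTEC level the higher of the probe's own signal and the lowest signal well above background on each array.

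The fitted log2 difference of miR-15a was -0.73 in mTECs (SE 0.087, adjusted p = 0.00116) and -0.74 in cTECs (adjusted p = 0.0016) against CD45+ cells. Both are differences from the floor and understate the gap. With the lower floors of 342, 129 and 67.0, all 3 of which leave the mTEC values as measured, the mTEC difference was -0.99, with adjusted p of 0.00796, 0.0422 and 0.0461. Between mTECs and cTECs the difference was 0.01 (95% interval -0.23 to 0.25), which holds 2 groups at the floor against each other and is not a measured likeness. It was 1.56 without normalization (adjusted p = 0.0618), 0.93 when all mouse probes set the percentile (adjusted p = 0.228) and 0.85 with normexp background correction, the 1 setting under which it was called (adjusted p = 0.0168).

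**Figure D2:**
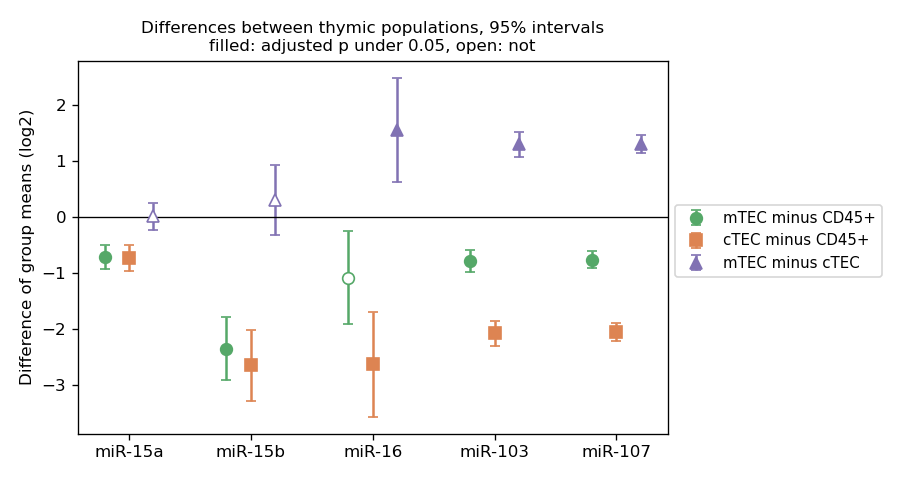
Difference of group means on the log2 scale (vertical axis) for the 5 bright members in the 3 comparisons, with 95% intervals from the limma fit, filled where the adjusted p was under 0.05. The intervals of miR-16 and miR-15b are the widest, and miR-103 and miR-107 show nearly the same pattern.

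miR-103 and miR-107 moved together. miR-103 read 2755, 2808 and 2416 in CD45+ cells, 491 and 469 in cTECs, and 1579, 1390 and 1624 in mTECs. miR-107 read 2763, 2765 and 2443 in CD45+ cells, 545 and 314 in cTECs, and 1485, 1569 and 1623 in mTECs. For both, the 3 groups did not overlap, in the order CD45+ cells, mTECs, cTECs. On cTEC replicate 2 neither was well above background, and both cTEC values of each lay under the floor.

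Against CD45+ cells, miR-103 was lower in mTECs by a log2 difference of -0.79 (SE 0.080, adjusted p = 5.68e-04) and miR-107 by -0.77 (SE 0.059, adjusted p = 1.66e-04). In cTECs the differences were -2.09 (adjusted p = 1.35e-05) and -2.06 (adjusted p = 4.38e-06), each against values at the floor. Their size moved with the processing, from -0.85 and -0.96 in the deposited log2 values to -4.34 and -4.26 without normalization. mTECs exceeded cTECs by 1.29 for miR-103 (adjusted p = 1.79e-04) and 1.30 for miR-107 (adjusted p = 5.37e-05). These values ran from 0.66 and 0.71 in the deposited log2 values to 2.98 and 2.93 without normalization. The cTEC results and the mTEC over cTEC results were called for both under all 25 alternatives that could be computed for them. The mTEC falls were not. With quantile normalization the difference from CD45+ cells was -0.46 for miR-103 (adjusted p = 0.202) and -0.49 for miR-107 (adjusted p = 0.308), and with normexp background correction -0.36 and -0.41 (adjusted p = 0.418 and 0.386). Without any normalization miR-103 had an adjusted p of 0.0612. In the deposited log2 values, made without background subtraction, the mTEC differences were -0.18 and -0.25 (adjusted p = 0.0498 and 0.0138).

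A difference between 2 probes on the same array is free of the scaling between arrays. miR-15b minus miR-16 was the only pair of the 7 set out for this purpose with both members over the floor on every array. On the log2 scale it was -1.07, -1.005 and -1.04 in CD45+ cells, -1.34 and -0.78 in cTECs, and -2.52, -2.23 and -2.20 in mTECs. The mTEC arrays lay below all others and the cTEC arrays lay on both sides of the CD45+ arrays. The mean was -1.04 ± 0.033 (SD, n = 3) in CD45+ cells, -1.06 ± 0.40 (SD, n = 2) in cTECs and -2.31 ± 0.18 (SD, n = 3) in mTECs. The planned test set all 5 epithelial arrays against the 3 CD45+ arrays and gave a difference of -0.77 (two-sided exact permutation p = 0.143, where 0.0357 is the smallest p possible). The gap of -1.27 between mTECs and CD45+ cells was seen after the values were known, and 3 arrays against 3 cannot go below an exact p of 0.1.

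**Figure D3:**
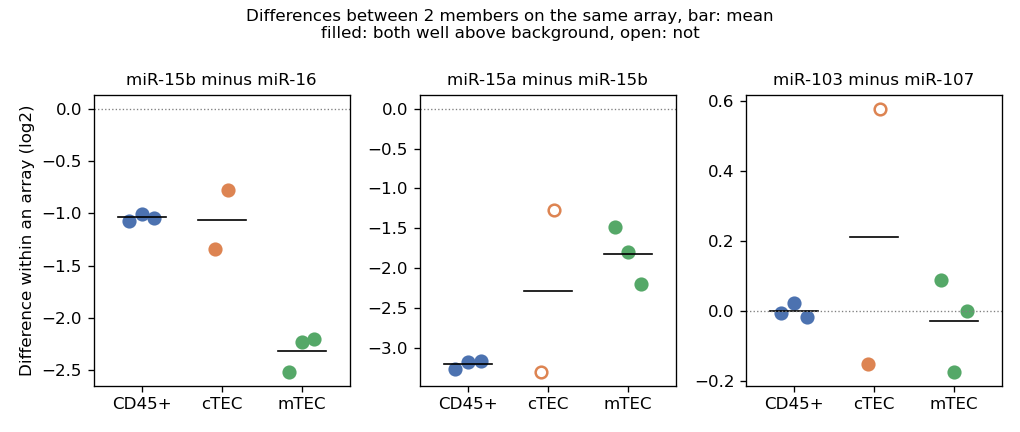
Log2 difference between 2 members on the same array, 1 dot per array with the mean as a bar, each panel with its own axis. miR-15b minus miR-16 lies between -2.52 and -2.20 in mTECs and between -1.34 and -0.78 elsewhere, miR-15a minus miR-15b lies higher in mTECs than in CD45+ cells, and miR-103 minus miR-107 lies near 0 in both. Open circles mark arrays on which a probe of the pair was not well above background.

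Without floor or scaling all 7 differences could be formed, and none had an adjusted p under 0.05 over the 7 (exact permutation tests, 0.25 to 0.964), although some of these signals were not well above background. miR-103 minus miR-107 was -0.0044, 0.02 and -0.02 in CD45+ cells and 0.09, -0.17 and 0.0014 in mTECs, so that the pair kept nearly 1 ratio there. It was -0.15 and 0.58 on the cTEC arrays, of which the second had neither probe well above background. miR-15a minus miR-16, the pair of the Dleu2 locus, had a mean of -4.24 in CD45+ cells and -4.14 in mTECs, a difference of 0.10 with SDs of 0.082 and 0.22. miR-15a minus miR-15b, by contrast, had means of -3.20 in CD45+ cells and -1.83 in mTECs, with SDs of 0.053 and 0.36, and these arrays did not overlap. On the cTEC arrays it was -3.31 and -1.27, where miR-15a was not well above background. The mTEC arrays did not overlap the CD45+ arrays either for miR-15a, miR-15b and miR-16 minus miR-103 and miR-107 (means 0.44 and 1.13). Nor did they for miR-322 minus miR-503 and miR-195 minus miR-497, where some signals were not well above background. These gaps were not what the planned tests compared.

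The X-linked pair was dim throughout. miR-322 read 228, 213 and 209 in CD45+ cells, 344 and 363 in cTECs and 272, 320 and 304 in mTECs, and was well above background on all arrays but cTEC replicate 2. miR-503 read 106, 119 and 91.1 in CD45+ cells, 106.7 and 134 in cTECs and 306, 253 and 300.0 in mTECs, and was well above background on 1 CD45+, no cTEC and 2 mTEC arrays. The mTEC arrays of both lay above the CD45+ arrays without overlap. The ratio of means was 1.38 for miR-322, and for miR-503 no ratio is given, since 2 of its 3 CD45+ readings were not well above background. The main floor sets both groups to the same value.

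At the floors of 129 and 67.0, miR-503 was called higher in mTECs than in CD45+ cells (adjusted p = 0.00134 and 0.00121). No size is given for this either, on the same ground, and 1 of the 3 mTEC readings was not well above background. miR-503 passed the filter for testing only through its mTEC arrays, the group where it read highest. No conclusion is drawn from this call. With the same 2 floors miR-322 differed by 0.46 on the log2 scale each time (adjusted p = 0.0611 and 0.0796). The median shift of all 309 miRNAs in this comparison was itself 0.22 and 0.45 under those floors. In the deposited quantile-normalized table, made from signals without background subtraction, the miR-503 difference was 0.07 (adjusted p = 0.289) and that of miR-322 was -0.02 (adjusted p = 0.737), so that the direction for miR-322 turned. It was below 0 for miR-322 also when all mouse probes set the percentile (-0.21), without normalization (-0.07) and with normexp (-0.04), while miR-503 stood at 0.33, 0.67 and 0.41 there, with adjusted p of 0.283, 0.225 and 0.219. All 6 of their X cluster partners in the table, with miR-351 and the miR-542 and miR-450 miRNAs among them, were not well above background on any CD45+ or cTEC array, and none reached the 2 arrays needed for a test.

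**Figure D4:**
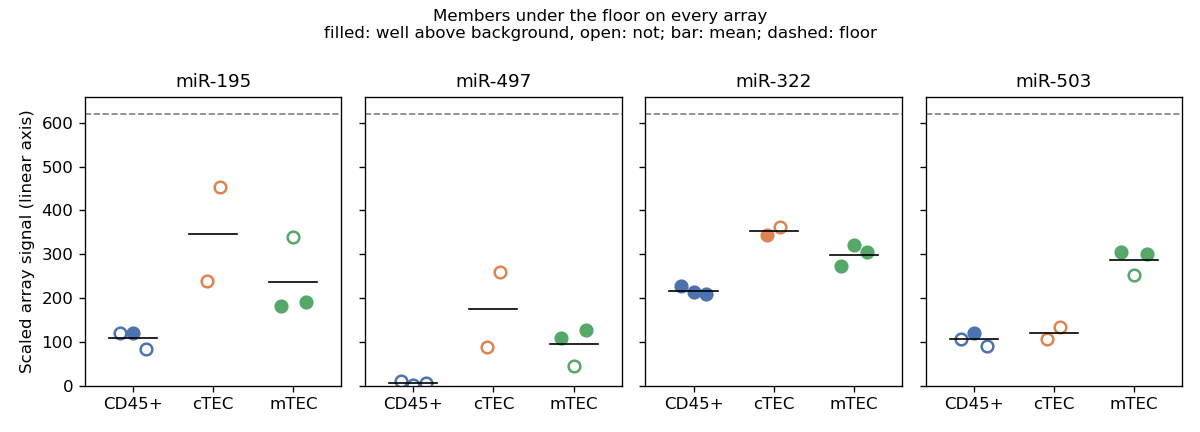
Scaled array signal (linear axis) of the 4 dim members on each array, all under the floor of 621 (dashed), with open circles where the probe was not well above background and the mean as a bar. The miR-503 signal is 253 to 306 on the mTEC arrays and 91.1 to 134 on the other arrays.

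miR-195, which halts the division of heart muscle cells after birth, and its neighbour miR-497 were at the edge of detection. miR-195 read 120, 121 and 83.1 in CD45+ cells, 240 and 454 in cTECs and 181, 340 and 191 in mTECs, and was well above background on 1, 0 and 2 arrays of these groups. miR-497 read 11, 1.29 and 5.20 in CD45+ cells, 88.3 and 260 in cTECs and 110, 44.8 and 127 in mTECs, and was well above background on 0, 0 and 2 arrays. The higher cTEC readings of both came from arrays multiplied by 1.98 and 4.23 in the scaling, on which neither probe was well above background, and they are not measured levels. At the lowest floor, miR-195 was called higher in mTECs than in CD45+ cells (adjusted p = 0.0382), and under no other of its 24 alternatives. That call rests on readings of which 2 of 3 in CD45+ cells and 1 of 3 in mTECs were not well above background. The median of all 309 miRNAs moved by 0.45 under that floor. miR-195 passed the filter for testing only through its mTEC arrays, so that no conclusion is drawn from this call.

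The passenger strands of the members, the strands that are usually discarded, were near background. Of the 11 in the table, none was well above background on a CD45+ or cTEC array. The array sums over all 11 were 279 to 390 in CD45+ cells, 603 to 1969 in cTECs and 386 to 1489 in mTECs. In mTECs 1 of the 11, miR-195*, was well above background, on 1 array. The precursors' other products therefore add no second reading of the bright members.

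The other proliferation miRNAs were counted from lists drawn up by known role. Of 12 miRNAs known to promote the cell cycle, among them the miR-17/92 and miR-106b/25 clusters, miR-21 and miR-221/222, 11 were lower in mTECs and 12 in cTECs than in CD45+ cells, with median log2 differences of -1.69 and -2.59. Of 16 known to restrain it, taken from the let-7, miR-34 and miR-26 families with miR-98 and miR-449a, 15 were tested. Of these, 3 were higher and 4 lower in mTECs, and 2 were higher and 7 lower in cTECs. The median was 0 in both, a value set by miRNAs at the floor in both groups compared. The lists also differ in brightness. All 12 promoting miRNAs were well above background on every CD45+ array, against 12 of the 16 restraining ones. Whether the medians differ by role was not tested. Between mTECs and cTECs 8 of the promoting and 6 of the restraining miRNAs were higher in mTECs and none lower. Over all 309 tested miRNAs, 46 were lower in mTECs and 62 in cTECs than in CD45+ cells, and 50 were higher and 20 lower in mTECs than in cTECs.

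The miRNAs nearest to the mean profile of miR-15b and miR-16, the members over the floor on all 8 arrays, came from both lists. Among 43 other miRNAs over the floor on all 8 arrays, the smallest root mean square distance from the mean profile of the pair, each profile centred on its own mean, was 0.26 for miR-20a, 0.30 for miR-17 and 0.41 for let-7i on the log2 scale. The mean signal of miR-20a was 6494 in CD45+ cells, 823 in cTECs and 1827 in mTECs, and that of miR-17 was 6758, 761 and 2016, with 1 of the 2 cTEC readings of miR-17 not well above background. Next in distance were let-7g, let-7d and let-7f, of the restraining list, at 0.45 to 0.47. The mean profile averages 2 members that part in mTECs, where the log2 difference from CD45+ cells was -2.36 for miR-15b and -1.09 for miR-16. Nearness to it is therefore not nearness to each of them. The ranking is a description over 8 arrays that share their scaling.

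Markers of other cell types moved with these differences. Blood cell miRNAs, 6 in all with miR-142-3p, miR-150 and miR-181a among them, summed to 24259 to 28136 on the CD45+ arrays, 4131 to 5103 on the cTEC arrays and 3216 to 4619 on the mTEC arrays. Of these, 5 were called lower in mTECs and 6 in cTECs, and 3 were well above background on both cTEC arrays. The 7 epithelial miRNAs, the miR-200 family with miR-205 and miR-203, summed to 623 to 704 in CD45+ cells, 4442 to 8620 in cTECs and 36800 to 39058 in mTECs. On both cTEC arrays 3 of the 7 were well above background and on neither 2 of them, so that fewer of the defining markers were seen in cTECs than in mTECs, where all 7 were. The 5 mesenchymal miRNAs summed to at most 301 in CD45+ cells, 5117 in cTECs and 6660 in mTECs. Of these, miR-143 and miR-145 were called higher in both epithelial groups, and their mTEC means of 3219 and 2909 made up most of the mTEC sum. miR-214 read 32.4 to 440 in mTECs and was well above background on 2 of the 3 arrays there, and on no CD45+ or cTEC array. miR-199a-3p and miR-199a-5p were not well above background on any mTEC array. The 2 endothelial miRNAs summed to at most 295, 2755 and 550, and 1 of them, miR-126-3p, was tested. It was called higher in cTECs than in CD45+ cells (log2 difference 1.38, limma adjusted p = 0.0335) and lower in mTECs than in cTECs (-1.38). The 3 red cell miRNAs were not well above background on any CD45+ or cTEC array. The part of CD45+ cells left in the epithelial sorts, or of other stroma, in the members' signals was not tested.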

How the data were processed

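The 8 samples of 3 sorted thymic populations were measured on single-colour arrays. The authors deposited the scanner intensity of every spot, with a background-subtracted processed signal, and a table of quantile-normalized log2 values for 1040 mouse probes, which also holds their own fold changes, p-values and log odds (not used here). For the arrays, the paper's methods name no normalization or test, and the submitters' processing notes name limma. Here each array was brought to a common 75th percentile, taken over 65 mouse probes that all 8 arrays detected well above background. Outlier spots were left out, spot values under 621 were set to that floor, and log2 values were averaged over a probe's 5 spots. The spot CV of the bright detected members was 2.40% to 26.9% (median 7.95%), and the number of arrays limits the precision. Tests covered the miRNAs with most spots well above background on 2 or more arrays, with 1 limma model of 3 group means (R 4.3.3, limma 3.58.1, lmFit and eBayes, Benjamini-Hochberg over 309). The 83 miRNAs at the floor everywhere entered the adjustment as not different.

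Simulated data for mTECs against CD45+ cells over 309 miRNAs held only rises in mTECs, each of 2 on the log2 scale. On these, the floor and the limma fit recovered 50 of 60 changed miRNAs, all 26 of those over the floor among them, and called 2 unchanged ones. With none changed, 0 were called. Falls, smaller differences, the scaling, the filter and the averaging of spots were not simulated. The members, lists and floor were chosen with earlier results of these data known. The miRNAs named are the 9 members, their seed kin, passenger strands and X cluster partners, the lists by role and cell type, and the 3 nearest profiles. Alternatives covered the scaling, background, floor, filter, spot summary, samples in the fit, a trend, blocks and each array left out. The normexp setting was run on the median signal of each spot, so that it changed more than the background correction.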

Additional observations from a re-analysis of the deposited data

How the results depend on the processing

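The members' counts moved with the filter, the floor and the normexp setting. With only miRNAs well above background on all 8 arrays tested, 2 members of 2 were lower in mTECs and 2 in cTECs than in CD45+ cells and 1 was higher in mTECs than in cTECs, and over all miRNAs 31, 53 and 38 were called in that order of comparisons, since fewer miRNAs were tested. With the lowest floor 7 members were called in mTECs (2 higher and 5 lower) and 8 in cTECs (3 higher and 5 lower) against CD45+ cells, where all calls at the main floor were lower, and 140, 224 and 129 of all miRNAs (76 higher and 64 lower, 139 higher and 85 lower, and 72 higher and 57 lower), with the median of all miRNAs moved by 0.45 and 0.86 against CD45+ cells, and with the median floor 115, 200 and 130. Normexp background correction gave 121, 170 and 127 calls and 5 members higher in mTECs than in cTECs, the deposited table a count of 121 in mTECs against CD45+ cells, and the 75th percentile over all mouse probes 39 between mTECs and cTECs, of which 38 were higher in mTECs against 50 of 70 here. Why these counts moved was not tested.

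Leaving out each array in turn gave 67 to 75, 82 to 170 and 58 to 147 calls, with 170 (110 higher and 60 lower in cTECs) and 147 (47 higher and 100 lower in mTECs) without cTEC replicate 1, which turns both balances round, and 4 to 5, 5 each time and 2 to 4 members called. Among the 5 bright members, the values that changed sign were those of miR-15b and miR-15a between mTECs and cTECs. For miR-15b they were -0.41 with quantile normalization, -0.33 with normexp and up to 2.06 without normalization. With an array left out they ran from -0.12 without cTEC replicate 2 to 0.71 without cTEC replicate 1. For miR-15a they were -0.0098 without mTEC replicate 2, -0.0014 without cTEC replicate 1 and 0.018 without cTEC replicate 2. Without normalization the miR-15a value was 1.56. The miR-322 difference between mTECs and CD45+ cells, 0 at the main floor, ran from -0.21 to 0.46. Replicate numbers are shared among the groups. The deviations of same-numbered samples from their group means correlated between -0.23 and 0.28, and those of differently numbered samples between -0.35 and 0.29. With 2 cTEC arrays the deviations of these mirror each other, so that the check cannot exclude pairing. Same-numbered samples were not taken as pairs in the main fit, and a replicate block was an alternative. With the replicate block, miR-16 was higher in mTECs than in cTECs by 1.60 with an adjusted p of 0.0856. Scaling without any normalization moved the median of all miRNAs by -0.43 in cTECs against CD45+ cells and by 0.41 between mTECs and cTECs, and the 75th percentile over all probes moved it by -0.12 in cTECs. Signal over background was lowest on the cTEC arrays, where 122 and 98 mouse probes were well above background, against 169 to 325 on the others, and this limits what can be read of dim members there.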
